A study of Mus musculus with 9 samples.

Results

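The 10 genes that encode the light-sensing cascade of cone photoreceptors were followed in P21 whole mouse retina by bulk RNA-seq. They were taken by gene symbol as 10 of the 55487 gene rows of the expression table, and each symbol matched a single row. The genes were the opsins Opn1sw and Opn1mw, the cone transducin subunits Gnat2, Gnb3 and Gngt2, the phosphodiesterase subunits Pde6c and Pde6h, the cyclic nucleotide-gated channel subunits Cnga3 and Cngb3, and the cone arrestin Arr3. All 10 exceeded the minimum for testing, at least 0.5 CPM (reads on a gene scaled to a common library total) in at least 3 libraries, as did 21330 genes in all.

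The 3 genotypes of the study were each represented by 3 libraries at postnatal day 21. Cre- controls, labelled WT, came from breeders without the Cre transgene. The tHet retinas were heterozygous for the floxed Tet1, Tet2 and Tet3 alleles, and the Tet tcKO retinas were homozygous for all of them. Both carried Chx10::Cre-GFP, which drives Cre in retinal progenitor cells, and were bred by in-crossing Cre+ animals so that each carried 2 copies of the transgene, which is otherwise mosaic. The strain was labelled C57 BL/6J throughout. Each library was prepared from pooled retinas of 2 animals, so p-values measure the spread between pooled libraries. Since Cre- animals had their own breeders, a difference from Cre- cannot be told apart from a difference in breeding line or Cre dose, whereas tHet and Tet tcKO both came from Cre+ in-crosses.

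TET1, TET2 and TET3 oxidize methylated cytosines and thereby start active DNA demethylation. In the cone outer segment, light activates an opsin, the opsin activates the transducin heterotrimer, and transducin relieves the inhibitory subunit of the PDE6 phosphodiesterase. PDE6 then lowers cyclic GMP, the cyclic nucleotide-gated channel closes and the cone hyperpolarizes, and arrestin ends the signal of the opsin. Rods, which far outnumber cones in the mouse retina, run the same cascade with their own paralogue at nearly every step, so the cone genes can be read against their rod counterparts in the same library. Most mouse cones contain both cone opsins in proportions that vary between dorsal and ventral retina. In whole-retina RNA, fewer cells of a type and less RNA per cell cannot be told apart.

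The sequence upstream of the RefSeq start was examined for members with the contrasting responses described below, because TET enzymes act on CpG dinucleotides. Windows of the 250 bases before a RefSeq start (GRCm38.p6) were at hand for 6 of the 10 genes, Opn1sw, Opn1mw, Gnat2, Pde6h, Cnga3 (with 2 starts) and Arr3, and not for Gnb3, Gngt2, Pde6c and Cngb3. For 4 of the 6 (Opn1sw, Gnat2, Pde6h and Cnga3) the whole window lay inside the gene as annotated by GENCODE, which extends upstream of the RefSeq start, whereas 2 bases of the Opn1mw window and none of the Arr3 window did. The first bases after the RefSeq start of Gnat2 were found in no GENCODE transcript of the gene. Shown 5′ to 3′ on the strand of the gene, with every CpG in capitals, are the windows of both opsins, whose transcripts differed in response (Opn1sw, chr6:29380514-29380763, minus strand; Opn1mw, chrX:74127216-74127465, plus strand), of Gnat2 and Arr3, which were higher in Tet tcKO (chr3:108092816-108093065 and chrX:100605247-100605496, both plus strand), and of Pde6h, which was lower (chr6:136954273-136954522, plus strand).
Opn1sw: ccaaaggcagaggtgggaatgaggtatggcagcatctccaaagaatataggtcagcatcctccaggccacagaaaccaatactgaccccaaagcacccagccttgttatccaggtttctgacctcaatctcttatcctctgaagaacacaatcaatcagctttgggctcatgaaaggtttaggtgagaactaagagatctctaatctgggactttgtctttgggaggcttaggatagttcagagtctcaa
Opn1mw: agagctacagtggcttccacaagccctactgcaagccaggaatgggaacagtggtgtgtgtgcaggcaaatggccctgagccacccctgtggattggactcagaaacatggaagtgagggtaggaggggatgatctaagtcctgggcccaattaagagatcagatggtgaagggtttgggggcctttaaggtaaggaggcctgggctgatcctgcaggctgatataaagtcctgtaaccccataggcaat
Gnat2: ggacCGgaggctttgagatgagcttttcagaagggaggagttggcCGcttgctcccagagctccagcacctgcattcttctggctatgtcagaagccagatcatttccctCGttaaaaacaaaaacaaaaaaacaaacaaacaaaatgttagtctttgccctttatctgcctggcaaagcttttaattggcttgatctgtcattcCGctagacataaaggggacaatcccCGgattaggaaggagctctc
Arr3: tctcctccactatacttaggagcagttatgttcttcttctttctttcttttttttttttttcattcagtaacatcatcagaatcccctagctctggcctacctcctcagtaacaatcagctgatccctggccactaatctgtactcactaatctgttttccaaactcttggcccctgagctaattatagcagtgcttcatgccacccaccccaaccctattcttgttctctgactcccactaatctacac
Pde6h: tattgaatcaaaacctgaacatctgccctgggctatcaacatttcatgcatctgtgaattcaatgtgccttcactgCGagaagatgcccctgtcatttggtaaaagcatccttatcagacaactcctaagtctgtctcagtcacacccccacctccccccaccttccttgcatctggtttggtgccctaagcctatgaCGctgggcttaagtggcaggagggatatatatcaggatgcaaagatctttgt

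The windows of Opn1sw, Opn1mw and Arr3 held no CpG, a state shared by 7.87% of the 32851 windows of the table, whose median was 6 CpG. The Pde6h window held 2, the Cnga3 windows 1 and 2, and the Gnat2 window 5. A window without a CpG thus belonged to Opn1sw and Arr3, which were higher in Tet tcKO, as well as to Opn1mw, which was not called. A search on both strands for TAATCC, the core recognized by CRX and OTX2, found it in 6.25% of all windows and, among the members, only in Gnat2, from 19 to 14 bases before the RefSeq start on the opposite strand. The nuclear receptor half-site AGGTCA was in 14.0% of all windows and was found at 2 places upstream of Opn1sw, from 202 to 197 bases before the start and, on the opposite strand, from 132 to 127 bases before it. TGCTGA, the half-site of NRL, was in 16.1% of all windows and overlapped the first of these in Opn1sw, on the opposite strand. AAGTCA, the half-site of NR2E3, was in 13.1% of all windows and in none of the members' windows. These are letter matches in short windows and carry no measurement of binding or methylation.

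Reads counted on genes numbered 14813873 to 16987479 per Cre- library, 9627927 to 21108256 per tHet library and 15176156 to 16840792 per Tet tcKO library, so that 3 reads corresponded to between 0.142 and 0.312 CPM. Library Tet tcKO 3 stood apart, since the ribosomal RNA gene CT010467.1 took 28.7% of its reads, against 3.72% in tHet 3 and at most 0.226% in the other libraries. Its CPM for all other genes were lowered accordingly, and 8 of the 10 cone genes had their lowest Tet tcKO value in this library. With CT010467.1 removed from the totals this number was 3. Whole-gene reads of the deleted genes include exons that remain after recombination and therefore check the genotype only in part. Tet3 ranged from 213 to 268 CPM in Cre-, 155 to 288 in tHet and 99.2 to 152 CPM in Tet tcKO (log2FC -0.99 against Cre-, limma adjusted p = 0.017), whereas Tet1 and Tet2 overlapped between genotypes. Crx, a transcription factor of photoreceptors, averaged 1110 CPM in Cre-, 1189 in tHet and 888 CPM in Tet tcKO, and the markers of the other retinal classes were likewise detected in every genotype.

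In Tet tcKO retinas, 7 of the 10 cone genes rose and 1 fell against Cre-, and the counts were equal against tHet. The 7 were Opn1sw, Gnat2, Gnb3, Gngt2, Cnga3, Cngb3 and Arr3, and the gene that fell was Pde6h. Pde6c and Opn1mw were not called. A gene was called where its log2 fold change (log2FC) was 1 or more in either direction and its limma adjusted p, over all genes tested, was under 0.01. Among all 21330 genes, 3.6% were called against Cre- and 3.0% against tHet. Of all genes, 2.03% were called higher and 1.57% lower against Cre-, and 1.39% higher and 1.61% lower against tHet. The split of all calls was 434 higher and 334 lower against Cre-, and 607 and 221 with CT010467.1 removed. Against tHet it was 297 and 343, and 424 and 215. The median log2FC of the 10 genes was 1.57 against Cre- and 1.51 against tHet, beside 0.00 and -0.06 for all genes. The summed level of the 10 genes was 709 to 831 CPM in Cre-, 802 to 907 in tHet and 1945 to 3097 CPM in Tet tcKO. The 2 comparisons share the Tet tcKO libraries. In all 7 genes that rose, every Tet tcKO library lay above every Cre- and tHet library, a separation seen in 10.0% of all genes against Cre- and 7.35% against tHet. Every Tet tcKO library lay below both controls for Pde6h, as for 9.6% and 9.68% of all genes.

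**Figure D1:**
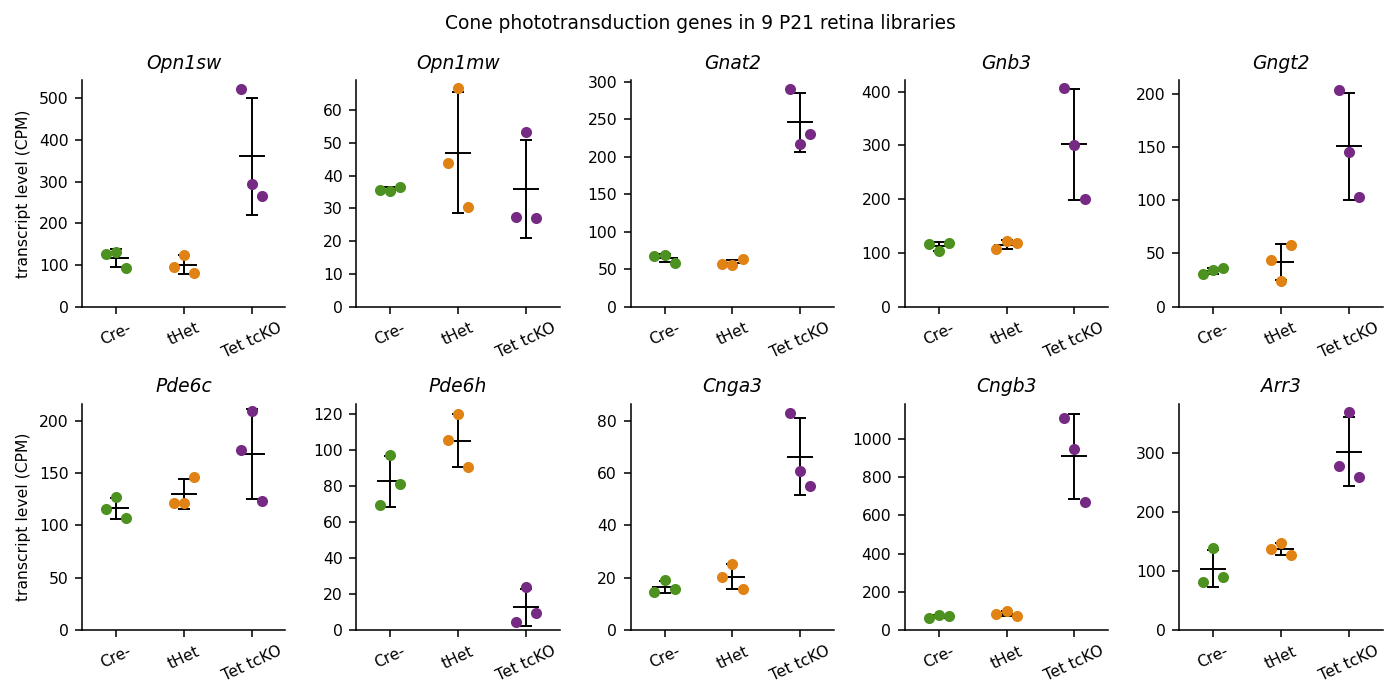
Transcript level in CPM (vertical axes, from 0) of the 10 cone genes in each library of Cre-, tHet and Tet tcKO retinas. Points are libraries, and bars give the mean ± SD over 3 libraries. Cngb3 lies between 671 and 1110 CPM in Tet tcKO and at most at 99.2 CPM in the controls, Pde6h is at most 24.1 CPM in Tet tcKO and at least 69.3 CPM in the controls, and Opn1mw overlaps between genotypes.

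Values below are given in the order of libraries 1, 2 and 3 of a genotype, and gene positions are on GRCm38. The opsins parted. Opn1sw, the short-wavelength opsin (chr6:29376671-29388468, minus strand), measured 127, 130 and 91.5 CPM in Cre- and 95.6, 125 and 80.8 CPM in tHet. In Tet tcKO it measured 521, 295 and 265 CPM. The Tet tcKO libraries were all above the controls and differed widely among themselves. The log2FC was 1.58 ± 0.26 (SE) against Cre- (limma adjusted p = 4.6e-04) and 1.80 ± 0.26 against tHet (limma adjusted p = 1.5e-04), 2.99-fold and 3.47-fold higher. Opn1sw overlaps Calu on the opposite strand by 397 exonic bases, and the strand setting of the counting is not given. Calu itself averaged 130 CPM in Cre-, 131 in tHet and 215 CPM in Tet tcKO (log2FC 0.71, limma adjusted p = 0.063), and its part in the Opn1sw value was not tested.

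Opn1mw, the medium-wavelength opsin (chrX:74127464-74150760, plus strand), measured 35.7, 35.2 and 36.5 CPM in Cre-. It measured 43.8, 66.9 and 30.4 CPM in tHet and 27.4, 53.4 and 27.2 CPM in Tet tcKO. The genotypes overlapped, with tHet 2 highest, and no difference was detectable beyond the spread between libraries. The log2FC was -0.07 against Cre- with a 95% interval from -0.66 to 0.53 (limma adjusted p = 0.97), and -0.38 against tHet with an interval from -0.97 to 0.21 (limma adjusted p = 0.56). A rise of the size seen for Opn1sw lay outside both intervals. The log2 ratio of Opn1sw to Opn1mw was 1.82, 1.87 and 1.32 in Cre-, 1.12, 0.90 and 1.40 in tHet, and 4.22, 2.46 and 3.27 in Tet tcKO. It did not overlap between Tet tcKO and either control, and the mean difference was 1.65 against Cre- and 2.18 against tHet. The exact two-sided permutation p was 0.1 in both, the smallest that 3 libraries against 3 allow.

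All 3 subunits of cone transducin rose. Gnat2, the alpha subunit (chr3:108092789-108101432, plus strand), measured 67.3, 68.1 and 58.1 CPM in Cre- and 56.2, 54.9 and 62.9 CPM in tHet. It measured 290, 217 and 230 CPM in Tet tcKO. The libraries within a genotype were close to each other, and the log2FC was 1.91 ± 0.20 against Cre- (limma adjusted p = 3.4e-06) and 2.06 ± 0.20 against tHet (limma adjusted p = 1.7e-06).

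Gnb3, the beta subunit (chr6:124834240-124840275, minus strand), measured 116, 103 and 118 CPM in Cre-, 106, 122 and 118 CPM in tHet, and 406, 302 and 200 CPM in Tet tcKO. Tet tcKO 1 was highest and Tet tcKO 3 lowest, the latter at 280 CPM with CT010467.1 removed. The log2FC was 1.37 ± 0.24 against Cre- (limma adjusted p = 7.7e-04) and 1.33 ± 0.24 against tHet (limma adjusted p = 0.0011). Without Tet tcKO 1 or without tHet 1 the call against tHet was lost, at a log2FC of 1.09 and 1.27. Gnb3 is also used by ON bipolar cells, the targets of rods and cones that depolarize to light. The 7 genes listed for ON bipolar cells, not all of them specific to these cells, were detected in every genotype. They summed to 1705 to 1993 CPM in Cre-, 1209 to 2027 in tHet and 1045 to 1841 CPM in Tet tcKO. These sums overlapped, but Cabp5, a calcium-binding protein of bipolar cells, was the most abundant of the 7 in Tet tcKO (mean 650 CPM). The log2FC was below 0 for 6 of the 7 in both comparisons (median of the 7 -0.60 against Cre- and -0.64 against tHet). Against Cre-, 3 were called lower (log2FC -2.16 for Trpm1, -2.16 for Nyx and -1.34 for Prkca) and Cabp5 was called higher (log2FC 1.76). These calls held in all 20 alternative settings for Cabp5 and in 16, 13 and 10 of them for Prkca, Nyx and Trpm1. Against tHet only Nyx was called lower (log2FC -1.86, in 7 of 20 alternative settings) and Cabp5 higher (2.46, in all 20), while Trpm1 (-2.11, limma adjusted p = 0.011) and Prkca (-1.11, limma adjusted p = 0.015) were not called. The part of ON bipolar cells in the Gnb3 value was not tested.

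Gngt2, the gamma subunit (chr11:95837216-95845734, plus strand), measured 30.7, 34.7 and 36.0 CPM in Cre-, 43.3, 24.2 and 57.8 CPM in tHet, and 204, 145 and 103 CPM in Tet tcKO. The tHet libraries spread most for their level, and all lay below the lowest Tet tcKO library. The log2FC was 2.09 ± 0.28 against Cre- (limma adjusted p = 6.3e-05) and 1.87 ± 0.28 against tHet (limma adjusted p = 2.6e-04). Gngt2 is also transcribed in macrophages and microglia, and it overlaps Abi3, a gene of these cells on the opposite strand, by 234 exonic bases. Abi3 was low in every genotype, with means of 0.538 CPM in Cre-, 0.869 in tHet and 0.684 CPM in Tet tcKO. The 9 microglial markers, all above 0, summed to 21.2 to 31.4 CPM in Cre-, 28.8 to 42.4 in tHet and 34.7 to 68.8 CPM in Tet tcKO. With CT010467.1 removed the sums were 21.2 to 31.5 CPM in Cre-, 28.9 to 44.1 in tHet and 48.1 to 68.9 CPM in Tet tcKO. The log2FC was above 0 for 8 of the 9 markers against Cre- (median of the 9 0.52) and for 7 against tHet (median 0.46). Only Cx3cr1, the fractalkine receptor, was called among them, against Cre- alone (log2FC 1.31), and this call held in 10 of 20 alternative settings. The part of microglia in the rise of Gngt2 was not tested.

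Neither phosphodiesterase subunit was called higher. Pde6c, the catalytic subunit (chr19:38132781-38183958, plus strand), measured 116, 127 and 107 CPM in Cre-, 122, 122 and 147 CPM in tHet, and 172, 209 and 123 CPM in Tet tcKO. Tet tcKO 3 lay within the control range and the other Tet tcKO libraries above it. The log2FC was 0.50 with a 95% interval from 0.04 to 0.96 against Cre- (limma adjusted p = 0.25) and 0.34 with an interval from -0.12 to 0.80 against tHet (limma adjusted p = 0.48), and neither was called. With CT010467.1 removed, Tet tcKO 3 rose to 173 CPM, above every control library, and the log2FC was 0.66 and 0.49 (limma adjusted p = 0.011 and 0.055), still below the fold-change threshold.

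Pde6h, the inhibitory gamma subunit (chr6:136923832-136968865, plus strand), measured 69.3, 97.2 and 81.2 CPM in Cre- and 105, 120 and 90.5 CPM in tHet. It measured 4.39, 24.1 and 9.45 CPM in Tet tcKO, from 74, 366 and 157 reads. It was the only cone gene to fall, to well below every control library, and its Tet tcKO libraries spread more, relative to their level, than those of any other member. The log2FC was -2.95 ± 0.37 against Cre- (limma adjusted p = 2.4e-05) and -3.31 ± 0.37 against tHet (limma adjusted p = 8.6e-06), 7.75-fold and 9.89-fold lower. It ranked 16 and 5 from the bottom of the 21330 genes by log2FC. The gene overlaps Arhgdib on the opposite strand by 136 exonic bases. The log2 ratio of Pde6c to Pde6h, the catalytic over the inhibitory subunit, was 0.73, 0.38 and 0.39 in Cre-, 0.21, 0.02 and 0.69 in tHet, and 5.14, 3.09 and 3.64 in Tet tcKO. These did not overlap (mean difference 3.45 against Cre- and 3.65 against tHet, exact two-sided permutation p = 0.1 for each).

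Both channel subunits rose, Cngb3 more than Cnga3. Cnga3, the pore-forming subunit (chr1:37214434-37263384, plus strand), measured 14.6, 19.0 and 15.5 CPM in Cre-, 20.2, 25.1 and 15.6 CPM in tHet, and 83.1, 60.6 and 55.2 CPM in Tet tcKO. The log2FC was 1.97 ± 0.24 against Cre- (limma adjusted p = 2.0e-05) and 1.68 ± 0.24 against tHet (limma adjusted p = 1.4e-04).

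Cngb3, the modulatory subunit (chr4:19280850-19510623, plus strand), measured 60.5, 77.1 and 75.0 CPM in Cre- and 84.4, 99.2 and 72.0 CPM in tHet. It measured 1110, 948 and 671 CPM in Tet tcKO, from at least 11148 reads. The lowest Tet tcKO library lay far above the highest control, and the shift against Cre- was the widest of the 10 genes in all 20 alternative settings. The log2FC was 3.65 ± 0.23 against Cre- (limma adjusted p = 2.3e-09) and 3.39 ± 0.23 against tHet (limma adjusted p = 1.0e-08), 12.6-fold and 10.5-fold higher, ranks 23 and 22 from the top of all genes tested. Against tHet the size of the shift was close to that of Pde6h (-3.31), and Pde6h had the wider shift without Tet tcKO 2 (-3.91 beside 3.35 for Cngb3) or without tHet 3 (-3.41 beside 3.28). The log2 ratio of Cngb3 to Cnga3 was 2.01, 2.00 and 2.24 in Cre-, 2.03, 1.96 and 2.17 in tHet, and 3.73, 3.96 and 3.59 in Tet tcKO. Within each genotype the ratio was nearly constant, and its mean was 1.68 higher than in Cre- and 1.71 higher than in tHet (exact two-sided permutation p = 0.1 for each). The SD over 3 libraries was between 0.11 in tHet and 0.18 in Tet tcKO.

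Arr3, cone arrestin (chrX:100605497-100618493, plus strand), measured 82.1, 140 and 90.1 CPM in Cre- and 138, 148 and 127 CPM in tHet. It measured 279, 370 and 260 CPM in Tet tcKO, above every control library. The tHet libraries were close together and near the highest Cre- library. The log2FC was 1.56 ± 0.23 against Cre- (limma adjusted p = 1.7e-04) and 1.12 ± 0.23 against tHet (limma adjusted p = 0.0044). The second call was the least stable of the members, since it was lost in 6 of 20 alternative settings. These included leaving out any of the 3 Tet tcKO libraries or tHet 1 or tHet 2, where the log2FC was between 0.97 and 1.22.

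**Figure D2:**
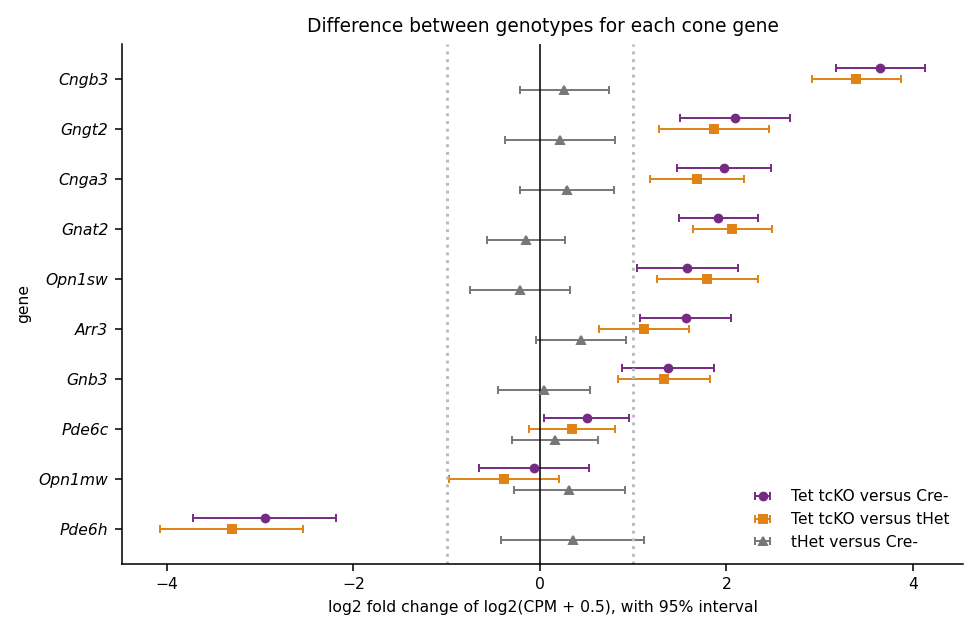
Log2 fold change (horizontal axis) of each cone gene with its 95% interval from limma, for Tet tcKO against Cre- (circles), Tet tcKO against tHet (squares) and tHet against Cre- (triangles). Dotted lines mark log2FC -1 and 1. Cngb3 (3.65 and 3.39) and Pde6h (-2.95 and -3.31) lie at opposite ends, and every tHet interval includes 0.

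Against Cre-, none of the 10 genes was called in tHet by limma, edgeR or DESeq2, and none had an unadjusted p under 0.05. Among all genes, 0.0422% were called in this comparison. The log2FC of the members ranged from -0.21 for Opn1sw to 0.44 for Arr3, the member with the smallest unadjusted p (0.071).

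Levels of different genes were compared as CPM per kilobase of the principal GENCODE transcript. In Cre-, Arr3 had the highest level (76.5 ± 23.0, SD, n = 3), followed by Gnb3, Opn1sw, Pde6c, Gnat2, Opn1mw, Gngt2, Cngb3, Pde6h and Cnga3 (4.60 ± 0.646). Neighbours whose ranges overlapped were Arr3 and Gnb3, Opn1sw and Pde6c, Gnat2 and Opn1mw, and Cngb3 and Pde6h. In tHet the ends of the order were the same, from Arr3 (101 ± 7.93) to Cnga3 (5.72 ± 1.34), and each gene from Pde6c to Cngb3 overlapped with the next. In Tet tcKO the level of Cngb3 (193 ± 47.1) was second to that of Arr3 (223 ± 43.2), with overlapping ranges, and Pde6h (2.13 ± 1.72) was lowest, below the range of Cnga3 (18.7 ± 4.16). The level of Pde6h per kilobase rests on an annotated transcript of 5940 bases. By plain CPM, Cngb3 made up 9.41% of the mean summed level of the 10 genes in Cre-, 10.1% of it in tHet and 35.6% of it in Tet tcKO. Pde6h made up 10.97% of this sum in Cre-, 12.5% of it in tHet and 0.495% of it in Tet tcKO.

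The rod counterparts moved the other way. Of 9 genes for the rod transducin, phosphodiesterase, channel and arrestin, 7 fell and none rose against Cre-, with the same counts against tHet. Their median log2FC was -2.33 and -2.24. Pde6a, a catalytic subunit of the rod phosphodiesterase, fell from 3293 CPM in Cre- and 2752 in tHet to 382 in Tet tcKO (log2FC -3.55 and -3.29). Gnat1, rod transducin alpha, fell from 6269 and 5109 to 820 CPM (log2FC -3.28 and -2.99). Pde6g, the rod inhibitory subunit, fell from 472 and 466 to 74.2 CPM (log2FC -2.94 and -2.89), and Cnga1, the rod channel alpha subunit, from 1362 and 1434 to 268 CPM (log2FC -2.46 and -2.53). The genes that were not called were Gngt1, with a log2FC of -0.28 and -0.42, and Sag, rod arrestin, which averaged 2117 CPM in Tet tcKO against 4174 in Cre- and 4280 in tHet (limma adjusted p = 0.085 and 0.077).

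Within a library, 8 of 9 ratios of a cone gene to a rod counterpart were higher in every Tet tcKO library than in any control. The log2 ratio of Gnat2 to Gnat1 was -6.66, -6.62 and -6.48 in Cre- and -6.63, -6.44 and -6.27 in tHet. In Tet tcKO it was 0.17, -2.83 and -1.52, so that Tet tcKO 1 held about equal reads of the cone and rod alpha subunits. The mean difference was 5.19 against Cre- and 5.06 against tHet. For Cngb3 over Cngb1 it was 5.41 and 5.44, and this ratio was positive, at 2.24, 1.25 and 1.20, in all Tet tcKO libraries. The smallest mean differences with no overlap were those of Gngt2 over Gngt1 (2.37 and 2.29) and Arr3 over Sag (2.56 and 2.15). Arr3 over Sag was also the most uniform in Tet tcKO (-2.78, -2.85 and -2.77). Pde6h was the exception, since its ratio to Pde6g was -2.78, -2.28 and -2.50 in Cre-, -2.45, -1.61 and -2.32 in tHet, and -2.38, -2.35 and -2.88 in Tet tcKO. The genotypes overlapped, with mean differences of -0.02 and -0.41 (exact two-sided permutation p = 1 and 0.4). Across the 12 ratios and both comparisons, 22 of 24 tests had no overlap between genotypes, each with the smallest exact permutation p of 0.1 and an adjusted p of 0.109. In every Tet tcKO library all 9 rod counterparts lay below Cre-, and 8 lay below tHet. For such a gene paired with a cone gene that rose, the lack of overlap follows from the single genes and adds no evidence. The share of other gene pairs without overlap was not computed. The Tet tcKO libraries differed among themselves, and 7 of the 9 cone to rod ratios were highest in Tet tcKO 1. A ratio within a library shows unequal change of the genes and not which of them changed.

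**Figure D3:**
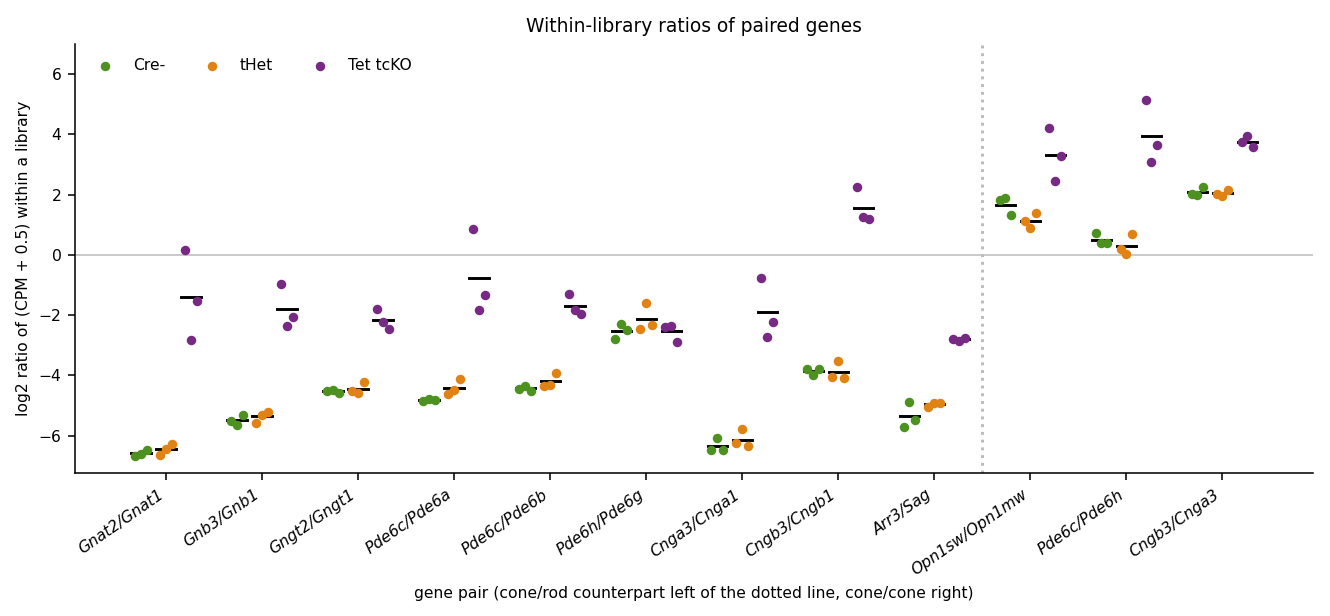
Log2 ratio of (CPM + 0.5) of gene pairs within each library (vertical axis), with cone genes over rod counterparts left of the dotted line and pairs of cone genes right of it. Points are libraries and black lines are means of 3 libraries. All pairs but Pde6h/Pde6g are higher in every Tet tcKO library than in the controls, and Cngb3/Cngb1 lies between 1.20 and 2.24 in Tet tcKO.

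Genes for shutoff, calcium feedback and cofactors, most of which serve cones and rods alike, did not follow the cone cascade in whole-retina RNA. They summed to 11069 to 12096 CPM in Cre-, beside 709 to 831 CPM for the cone cascade. Rods far outnumber cones, so the values do not show the level of these genes in cones. Of 14, 8 fell and none rose against Cre-, and 7 fell and none rose against tHet, with a median log2FC of -1.45 and -1.21. Among all genes, 1.57% and 1.61% were called lower. Guca1b, which encodes a guanylate cyclase activator, had a log2FC of -2.77 and -2.39. Slc24a1, the sodium, calcium and potassium exchanger of rods, had -2.48 and -2.68, Grk1, which phosphorylates opsins, had -1.84 and -1.87, and the guanylate cyclase Gucy2f had -1.80 and -1.71. Of the 14, 2 had a log2FC above 0 in each comparison, and neither was called. The Tet tcKO libraries all lay above tHet for 2 of the 14 and below it for 10. Among all genes these shares were 7.35% and 9.68%. Against Cre- they all lay above for 0 and below for 11, beside 10.0% and 9.6% of all genes.

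The study listed cone genes as early or mature from a developmental atlas, and members of the cascade stand in both lists, Cngb3 as early and Gnat2, Opn1sw, Opn1mw, Arr3 and Pde6h as mature. With them included, 8 of 12 early genes rose and none fell against Cre- (median log2FC 1.86), and 7 rose and none fell against tHet (1.84). Of 14 mature genes, 3 rose (Opn1sw, Gnat2 and Arr3), 6 fell and 5 were not called in each comparison (median log2FC -0.32 and -0.45), so the mature list moved in both directions. The genes of these lists outside the cascade are described next. Of 11 listed as early, 7 rose and none fell against Cre-, and 6 rose and none fell against tHet (median log2FC 1.67 and 1.60). Otop3, a proton channel gene, averaged 2.62 CPM in Cre-, 3.86 in tHet and 61.9 CPM in Tet tcKO (log2FC 4.28 and 3.80). Ccdc136 averaged 174, 190 and 1062 CPM (log2FC 2.61 and 2.48), Rxrg, a retinoid receptor that marks developing cones, 7.38, 9.59 and 42.8 CPM (log2FC 2.41 and 2.08), and Cltb, clathrin light chain B, 111, 94.4 and 518 CPM (log2FC 2.22 and 2.47). Of the 9 mature genes that remained once the 5 cascade members were set apart, 5 fell and none rose in both comparisons (median log2FC -1.73 and -1.54). Prph2, a structural protein of outer segment discs in rods and cones, averaged 2111 CPM in Cre-, 1776 in tHet and 268 CPM in Tet tcKO (log2FC -3.39 and -3.14), followed by Cplx4 (-3.28 and -3.36, called in 13 of 20 alternative settings in each comparison), Kcne2 (-2.38 and -2.48) and Krt18 (-2.20 and -1.54). Rcvrn and Aipl1 are in both this list and that of shutoff and cofactors. The lists are not cone-specific throughout and were shown in the study on these libraries, so these counts are not independent evidence of direction.

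**Figure D4:**
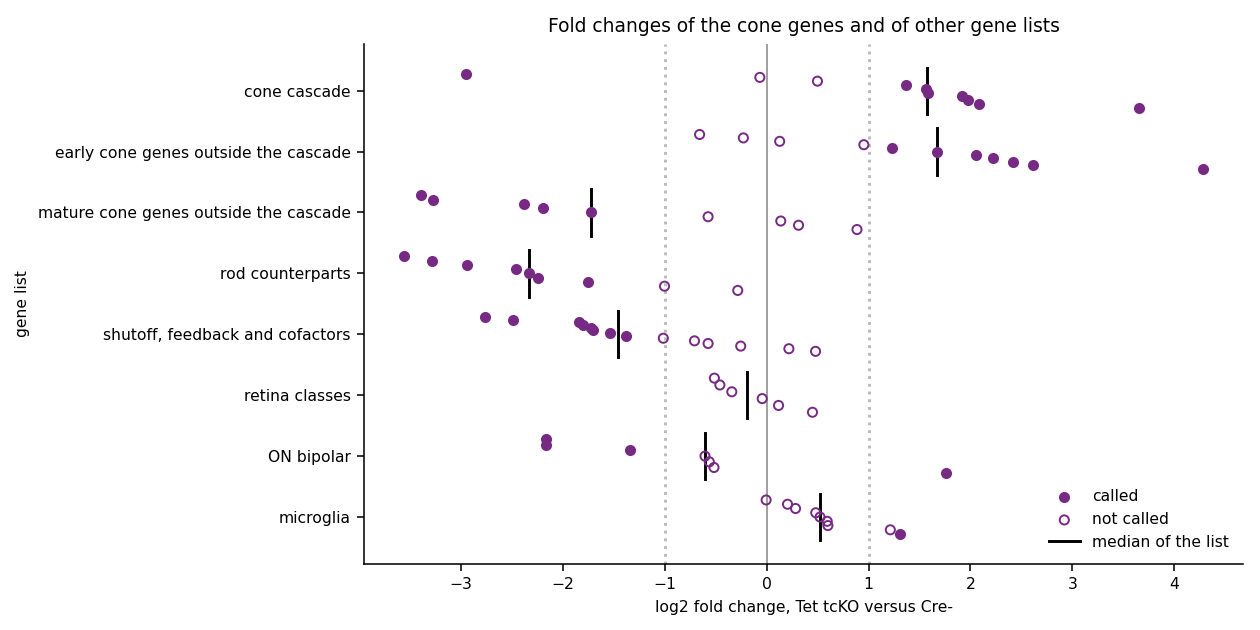
Log2 fold change against Cre- in Tet tcKO (horizontal axis) of every tested gene of the named lists. Filled points were called and open points were not, vertical black lines are list medians, and dotted lines mark -1 and 1. The cone cascade (median 1.57) and early cone genes (1.67) lie mainly to the right and the rod counterparts (-2.33) to the left, with Pde6h among the latter's values.

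The genes whose pattern over the 9 libraries was most like 3 of the members were sought by Pearson correlation of log2(CPM + 0.5), as a description that mainly follows the difference between genotypes. The pool was 13540 tested genes with a mean of at least 1 CPM over the 9 libraries. It left out the members and all symbols starting with Gm or ending in Rik. For Gnat2 the 5 nearest were AW551984, Gsc2, Klhl4, Clca1 and Inppl1 (r from 0.990 to 0.997). That all 5 averaged higher in Tet tcKO follows from choosing them by likeness to Gnat2. AW551984 averaged 0.557 CPM in Cre-, 0.448 in tHet and 11.3 CPM in Tet tcKO, and Gsc2 0.905, 0.905 and 14.4 CPM. Both reached a mean of 1 CPM only through Tet tcKO. Klhl4 averaged 5.95 CPM in Cre-, 5.72 in tHet and 54.0 CPM in Tet tcKO. For Pde6h they were Grtp1, Cdr2, Cnga1, Abca13 and Gramd2 (r from 0.988 to 0.990), with the rod channel gene Cnga1 among them. All were lower in Tet tcKO, which likewise follows from the choice. For Opn1mw they were Aldh4a1, Dclk2, Grid2ip, Rian and Hps3 at a lower likeness (r from 0.921 to 0.927).

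Markers of other cell types were set beside these values. None of 6 markers of retinal classes was called in either Tet tcKO comparison, with log2FC against Cre- from -0.51 for Lhx1 to 0.45 for Tfap2a. Against tHet the log2FC ranged from -0.48 to 0.73. Among all genes only 3.6% and 3.0% were called, so the lack of calls among 6 markers does not show that these classes were unchanged. In all Tet tcKO libraries 1 marker lay below Cre- and 1 above tHet, as did 9.6% and 7.35% of all genes. Markers of the pigment epithelium, which adheres to dissected retina, summed to 37.8 to 156 CPM in Cre-, 116 to 144 in tHet and 24.0 to 37.5 CPM in Tet tcKO. Of 4 that could be tested, Rgr was lower in both comparisons (log2FC -1.62 and -2.31, called in 12 and 19 of 20 alternative settings) and Ttr against tHet (-2.27). The part of the pigment epithelium in the cone gene values was not tested.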

How the data were processed

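The authors removed ribosomal RNA, prepared stranded libraries, trimmed reads with Trim Galore 0.6.7, aligned them to mm10 with STAR 2.7.0f and counted them on genes with HTSeq 0.11.2 (per the labels). Annotation and strand settings are not given in the sources used here. The deposited values are CPM, divided by the plain library total. All positive CPM values (100%, within 0.01 reads) were whole multiples of 1 read, so counts were recovered. Depth was 9627927 to 21108256 reads per library, and floors cover counting error only. The authors' own columns of log2 fold changes, p-values, false discovery rates and mean CPM were not used.

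Values were fitted as log2(CPM + 0.5) by limma 3.58.1 (R 4.3.3) with an intensity trend, 1 mean per genotype, all 9 libraries and Benjamini-Hochberg adjustment over 21330 genes. Fold changes are on this scale, which understates those of low genes. Ratios were tested by exact two-sided permutation over libraries, adjusted over 24 tests. Alternatives were pseudocounts of 0.1 and 1, other filters and scalings, removal of CT010467.1, edgeR 4.0.16 and DESeq2 1.42.0 on recovered counts, a replicate block, the 6 libraries compared, and leaving out each library. On simulated data for Tet tcKO against Cre-, limma recovered 95.5% of 200 genes changed by a log2FC of 2, with 4 false calls among 20732 genes. The simulated libraries shared 1 mean profile apart from the changed genes, which had means of at least 1 CPM. All genes were given the same setting for the spread between libraries, and no library was given a raised share of CT010467.1. These figures are therefore not error rates for the libraries analysed here.

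The members and lists were chosen with earlier results of these data known. From other lists, at most 4 called genes per direction were named, by log2FC against Cre-. Genes named as not called, the antisense neighbours and CT010467.1 were named after their values were seen. Positions and transcript lengths are from GENCODE release 21 (GRCm38), where all 10 identifiers matched, and upstream windows are from RefSeq. No 2 libraries were identical. DNA methylation and single-nucleus data were not analysed here.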

Additional observations from a re-analysis of the deposited data

How the results depend on the processing

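Under all 20 alternatives, 8 cone genes were called in Tet tcKO against Cre- and none in tHet against Cre-, whereas the number called against tHet was 6 to 8. Of the 200 alternative log2 fold changes against tHet, 8 fell below a threshold, 6 for Arr3 and 2 for Gnb3. For Arr3 these were no filter on low values (adjusted p = 0.020) and leaving out Tet tcKO 1, 2 or 3 or tHet 1 or 2 (0.010 to 0.026), and for Gnb3 leaving out Tet tcKO 1 (0.015) or tHet 1 (0.011). Values of genes that were not called changed sign. Opn1mw against Cre- was 0.094 with CT010467.1 removed and ranged from -0.38 to 0.10 on leaving out 1 library. In tHet against Cre-, Gnb3 was -0.021 with DESeq2, -0.017 with edgeR and -0.016 with TMM scaling, and ranged from -0.018 to 0.10 on leaving out 1 library, and Gngt2 ranged from -0.055 to 0.56. The ratio of Pde6h to Pde6g against Cre- was 0.042 with a pseudocount of 1 and ranged from -0.15 to 0.16. The cause was not tested.

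Removal of CT010467.1 moved the median log2FC of all genes against Cre- from 0.00 to 0.14, and it moved the members' values by similar amounts. Counts over all genes were less stable than those of the members. Against Cre-, 768 genes were called, 417 with no filter and 331 to 982 on leaving out 1 library (331 without Tet tcKO 1, 389 without Tet tcKO 3 and 423 without Cre- 3). Against tHet, 640 were called, 1046 with DESeq2, 351 with no filter, 1013 with the 6 libraries compared and 252 to 973 on leaving out 1 library (252 without Tet tcKO 1, 328 without Tet tcKO 3, 338 without tHet 1 and 973 without tHet 3). In tHet against Cre-, 9 were called, 40 with DESeq2, 1 with edgeR, CT010467.1 removed, no filter, TMM or upper-quartile scaling or the 6 libraries compared, and 0 to 17 on leaving out 1 library.

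Libraries of different genotypes share replicate numbers but not animals, so the numbers were not taken as pairing in the main fit. The correlation of deviations for same-numbered libraries ranged from -0.35 to 0.56 (mean 0.11 over 9 pairs, against -0.05 for different numbers). Of the 9 libraries, 5 correlated best with one of their own number. Whether libraries of the same number shared a batch was not tested. With the replicate block, 8, 8 and 0 cone genes were called in the 3 comparisons, and 1127, 1125 and 40 genes in all. The 3 libraries per genotype limit the exact tests to p of at least 0.1, and low Pde6h in Tet tcKO rests on 74 to 366 reads.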
